A study of Mus musculus with 31 samples.

Results

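Epididymal white adipose tissue (eWAT), the visceral fat pad attached to the epididymis, was compared between mice held 4 days in the cold and mice killed without cold exposure. The members are 6 of the 31 RNA-seq libraries of the series. They were chosen by depot and day in the labels: eWAT548, eWAT551 and eWAT553 are day 4, and eWAT516, eWAT517 and eWAT518 are day 0. All 6 came from male C57BL/6J mice aged 8 weeks, with no transgene or drug in any group. Every mouse first spent 8 days at thermoneutrality, and the day 4 mice were then moved to 4 °C. The remaining libraries are 3 of eWAT at day 2, which enter the fit, and those of inguinal white fat (iWAT) and interscapular brown fat (iBAT), which serve for comparison. The labels number the libraries but do not say that each number is a separate mouse, so p-values measure the spread between these libraries, which may be technical. In the 6 libraries, total counts ran from 3.42 to 4.03 M.

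White adipocytes store triglyceride and release fatty acids when adrenergic nerves fire in the cold. Brown adipocytes, and the beige adipocytes that can appear in white depots, instead oxidise fuel and release heat through uncoupling protein 1 (Ucp1). Epididymal fat is known as the depot that browns least, and besides adipocytes it holds fibroblasts, macrophages, vessels, nerve and a mesothelial covering. The pad lies against the epididymis and vas deferens, whose epithelium, muscle and sperm can come along in dissection.

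The defining adipocyte markers were present in all 6 libraries. The summed level of the 7 white adipocyte markers with a row was 21020, 48020 and 61700 CPM (counts scaled to a common library total) at day 0 and 34360, 16450 and 52080 CPM at day 4, always in the order of the library numbers given above. Libraries eWAT516 and eWAT551 stood apart. Epididymis and testis markers (21 of 23 with a row) summed to 23540 CPM in eWAT516 and 44700 CPM in eWAT551, or 2.35% and 4.47% of their counts, against 236 to 2207 CPM in the other 4. The genes behind these sums differed. In eWAT516 the aldose reductase family member Akr1b7, abundant in vas deferens, stood at 13890 CPM, and it was at 4.03 CPM in eWAT551. In eWAT551 the epididymal defensin Defb20 stood at 11860 CPM and the epididymal lipocalin Lcn8 at 8957 CPM, against 5.85 and 0.675 CPM in eWAT516. Smooth muscle markers summed to 11840 CPM in eWAT516 and to 545 to 1087 CPM in the other 5 libraries, and skeletal muscle markers to 1431 CPM against 36.4 to 113 CPM. Library eWAT518 lay on the far side of the axis along which libraries of 1 group differ most in the other depots (score 1.08, with eWAT548 at 0.04 and the other 4 between -0.95 and -0.53). Its keratin gene Krt17 was at 3854 CPM, against 1409 CPM in eWAT548 and 60.9 to 398 CPM in the others. For gene lists, the leave-out range below is the lowest and the highest median when each of the 6 libraries was left out in turn.

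**Figure D1:**
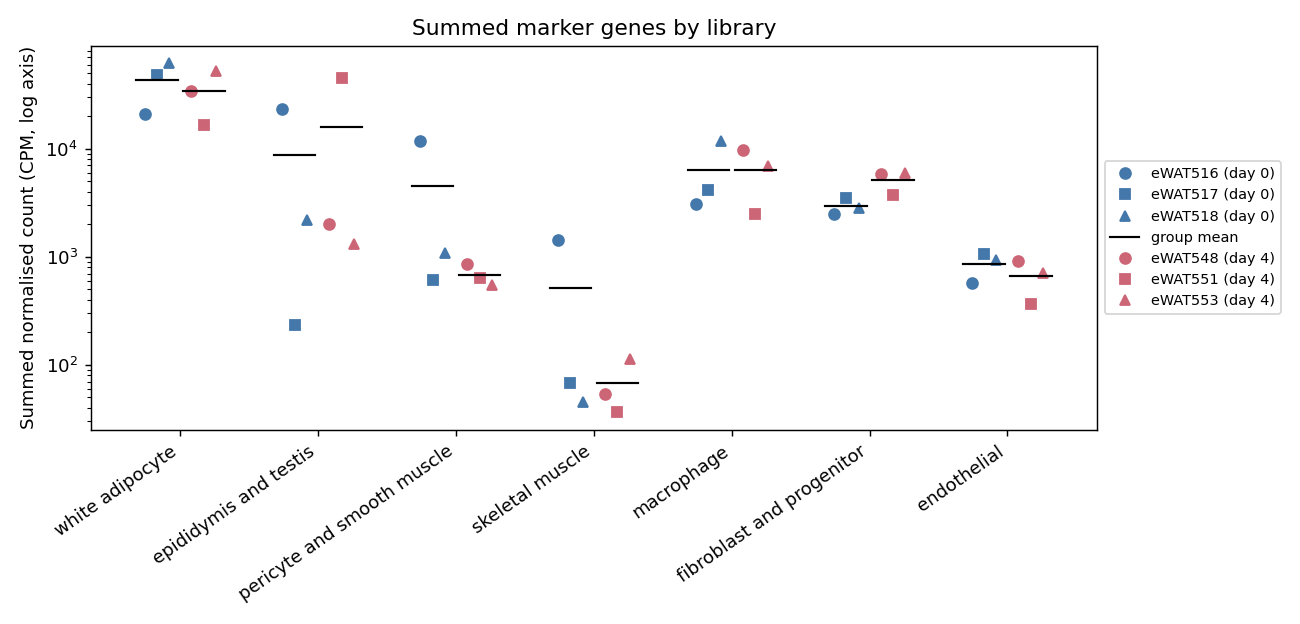
Summed normalised counts (CPM, log axis) of 7 marker lists in each of the 3 day 0 (blue) and 3 day 4 (red) epididymal libraries, with the group mean as a black bar. Libraries eWAT516 and eWAT551 are the high points of the epididymis and testis list (23540 and 44700 CPM), and eWAT516 alone is high for smooth and skeletal muscle.

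No gene passed the test between day 4 and day 0. Of 10043 genes that passed the count filter, edgeR's quasi-likelihood test with Benjamini-Hochberg adjustment at 0.05 called 0 higher and 0 lower (0% called), and the smallest adjusted p was 0.9997. An unadjusted p under 0.05 was found for 277 genes (2.76%), with a positive log2 change in 158 (1.57%) and a negative one in 119 (1.18%). DESeq2, run as an alternative, called 1 gene higher (0.00996%) and 3 lower (0.0299%), and limma voom called 0, with 212 genes at an unadjusted p under 0.05. The estimates were wide. The median standard error of a log2 change was 0.55 and the median half-width of its 95% interval was 1.24, while the log2 changes of the middle 90% of genes lay between -1.08 and 1.03, with a median of -0.01. That interval is for a single gene, and the test adjusted over all genes needs a larger difference still. Values at day 4 lay above all 3 day 0 values for 484 genes (4.82%) and below all 3 for 440 (4.38%), together 924 genes (9.2%), and the counts of list members below are to be read against those shares. None of the genes named below passed edgeR's adjusted threshold, so their values are given as a description. In whole tissue, fewer cells of a type and less RNA per cell cannot be told apart.

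The genes with the smallest unadjusted p were taken only from those whose groups did not overlap and reached a mean of 5 CPM. Their separation was fixed by that rule and is not a result. Among those with higher values, Cd248 (endosialin, chromosome 19, 5068078 to 5070640), a surface glycoprotein of stromal fibroblasts and pericytes, had the smallest unadjusted p. It was at 22.7, 26.7 and 22.5 CPM at day 0 and at 174, 98.0 and 72.8 CPM at day 4. The lowest day 4 value, 72.8 CPM, was well above the highest day 0 value, 26.7 CPM. The log2 change was 2.26 (SE 0.47, edgeR unadjusted p = 0.000817, adjusted p = 0.9997), and DESeq2 called it (log2 change 2.26, adjusted p = 0.0275). Mfap5 (chromosome 6, 122513584 to 122529290), a glycoprotein of elastic microfibrils, was at 35.1, 84.6 and 96.6 CPM at day 0 and at 275, 240 and 430 CPM at day 4, a log2 change of 2.13 (SE 0.54). Its lack of overlap was likewise required by the rule.

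Mfap5 belongs to the list of fibroblast and progenitor markers. Of its 14 genes, 11 passed the count filter, and 10 of the 11 had a positive log2 change, with a median of 1.14 against -0.01 for all genes. In 5 of the 11 (45.5%) the groups did not overlap, all with day 4 above, against 4.82% of all genes, and 0 of the 11 passed the test. Fbn1, which encodes fibrillin-1, the main protein of microfibrils, was at 37.4, 84.3 and 115 CPM at day 0 and at 460, 483 and 337 CPM at day 4 (log2 change 2.44, SE 0.67). Pi16, a marker of adventitial fibroblasts, was at 57.0, 92.5 and 103 CPM and then at 187, 210 and 216 CPM (1.28, SE 0.36). Both genes had their lowest value in eWAT516 and little spread within day 4. The actin-severing protein gelsolin (Gsn) was at 20.3, 28.3 and 17.9 CPM and then at 86.4, 55.6 and 112 CPM (1.93, SE 0.66). Clec3b (tetranectin) had a log2 change of 1.58 (SE 0.54). The most abundant member by mean level, dermatopontin (Dpt), overlapped between groups: it was at 566, 1194 and 195 CPM at day 0 and at 1235, 983 and 2089 CPM at day 4, so eWAT517 stood above eWAT551. The collagen gene Col1a1 overlapped through the same libraries, with 1100 CPM in eWAT517 and 943 CPM in eWAT551. Without eWAT516 and eWAT551, a setting chosen after the data were seen, the median of the marker list was 1.26 with 10 of 11 positive, and the leave-out range was 0.91 to 1.46. The number of positive members was 8 of 11 without eWAT548, 9 without eWAT551 and 10 or 11 without each of the others. The summed level of the fibroblast and progenitor markers was 2509, 3511 and 2819 CPM at day 0 and 5789, 3716 and 5915 CPM at day 4, and its part in the single-gene values was not tested.

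Of 26 tested genes of the extracellular matrix list, 20 had a positive log2 change, with a median of 0.44 (leave-out range 0.26, without eWAT516, to 0.66, without eWAT551; 16 of 26 positive without eWAT553), and 5 (19.2%) had all day 4 values above all day 0 values. The 5 were Fbn1, Fn1, Mmp14, Loxl1 and Col1a2, and Fbn1 is also counted among the separated fibroblast and progenitor markers. Fibronectin (Fn1), an adhesive matrix glycoprotein, was at 93.6, 80.4 and 204 CPM at day 0 and at 598, 379 and 304 CPM at day 4 (log2 change 1.76, SE 0.54). The membrane-bound collagenase Mmp14 had a log2 change of 1.05 (SE 0.43), and the elastin crosslinking enzyme Loxl1 one of 1.00 (SE 0.40). Sparc, the list's most abundant member, overlapped between groups, with a log2 change of 0.43 (SE 0.60).

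Genes of the complement list showed the same kind of separation. Complement is a set of blood and tissue proteins that tag cells and debris, and C1q, its recognition part, is made by tissue macrophages. Of 11 tested genes, 9 had a positive log2 change (median 0.65, leave-out range 0.47 to 0.92) and 5 (45.5%) did not overlap, all with day 4 above. The complement component gene C6 is not in this list. It went the other way, with a log2 change of -2.06 (SE 0.50), and its groups were apart by the rule that picked it. C1qa (chromosome 4, 136895916 to 136898844) was at 24.99, 31.9 and 48.1 CPM at day 0 and at 203, 72.7 and 115 CPM at day 4 (log2 change 1.90, SE 0.50). C1qb, its neighbour on chromosome 4, was at 38.7, 75.9 and 37.0 CPM and then at 266, 140 and 142 CPM (1.85, SE 0.50). Library eWAT548 was the highest of the 6 for both. C1qc had a log2 change of 1.29 (SE 0.58), the C3a receptor gene C3ar1 of 1.34 (SE 0.61), and the C1 inhibitor gene Serping1 of 0.82 (SE 0.43). The adipocyte product Cfd (adipsin), the most abundant complement gene here, ran from 356 CPM in eWAT551 to 3284 CPM in eWAT548 within day 4 and spanned the whole day 0 range.

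The macrophage markers themselves overlapped between groups. Of 12 tested, 11 had a positive log2 change, with a median of 0.55, but in 0 of 12 were the groups apart. The receptor Csf1r, on which macrophages depend, was at 19.1, 41.7 and 54.7 CPM at day 0 and at 108, 45.4 and 84.7 CPM at day 4 (log2 change 1.04, SE 0.63). Adgre1, the gene of the F4/80 antigen, was at 8.10, 19.4 and 28.2 CPM and then at 49.7, 23.6 and 28.0 CPM (0.86, SE 0.58). In both, eWAT518 stood above the lowest day 4 library, and the median of the list was 1.08 with 12 of 12 positive without eWAT518, but 0.22 with 7 of 12 positive without eWAT548. Without eWAT551 it was 0.90. The list holds Lpl, which adipocytes also express and which makes up most of the summed level, so that sum is not a measure of macrophages. Among 5 tested genes of granulocytes and mast cells, 5 were positive with a median of 1.67 (1.01 without eWAT553), and the neutrophil gene S100a8 had a log2 change of 0.40 (SE 0.76). The mast cell carboxypeptidase Cpa3 was at 3.60, 4.69 and 0 CPM at day 0 and at 22.2, 7.25 and 20.8 CPM at day 4. The acute phase gene Saa3 was at 3.60, 14.8 and 9.97 CPM and then at 215, 29.0 and 51.5 CPM (log2 change 3.38, SE 1.03), with eWAT548 far above the others. The inflammation list, which holds Saa3, had 8 positive and 7 negative among 15 tested, and its median of 0.48 was -0.27 without eWAT548 and 0.18 without eWAT551. Its most abundant member, haptoglobin (Hp), had a log2 change of 0.70 (SE 0.83).

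The genes with lower values and the smallest unadjusted p, picked by the same rule and so without overlap, were of mixed kind. The long non-coding RNA gene 5031426D15Rik (chromosome 2, 6922702 to 6928722) was at 10.1, 13.1 and 16.0 CPM at day 0 and at 2.29, 2.68 and 2.49 CPM at day 4, a log2 change of -2.38 (SE 0.44), and DESeq2 called it (adjusted p = 0.0173). The serine protease inhibitor gene Serpina3b was at 16.0, 22.3 and 37.6 CPM and then at 2.29, 1.34 and 4.71 CPM (-3.17, SE 0.71), also called by DESeq2 (adjusted p = 0.0289). It belongs to a cluster of closely related Serpina3 copies, so its counts are uncertain. In both genes the gap between the groups was wide, although the rule required a gap. C6, which encodes a component of the complement membrane attack complex, was at 36.5, 64.0 and 110 CPM and then at 16.6, 14.5 and 19.4 CPM (-2.06, SE 0.50), the opposite sign to C1q. Lama5, the laminin alpha 5 chain of basement membranes, was at 119, 119 and 59.0 CPM and then at 38.5, 37.3 and 41.3 CPM (-1.34, SE 0.38). Klhdc8b, which encodes a kelch-repeat protein, had a log2 change of -1.38 (SE 0.36). The day 4 values of Lama5 and Klhdc8b lay close together, and only day 0 was spread.

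Of 5 tested nerve and Schwann cell markers, 4 were negative, and 2 (40%) did not overlap, with day 4 below. Their median of -0.79 had a leave-out range of -1.20, without eWAT517, to -0.31, without eWAT518. The myelin basic protein gene Mbp overlapped and had a log2 change of -0.18 (SE 0.43). The fourth gene called by DESeq2 was Sost (sclerostin, a secreted Wnt inhibitor), which stood at 116 CPM in eWAT516, at 0.234 and 0 CPM in the other day 0 libraries, and at 0 in all 3 day 4 libraries. That call rested on eWAT516, the library with the smooth muscle and vas deferens genes.

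**Figure D2:**
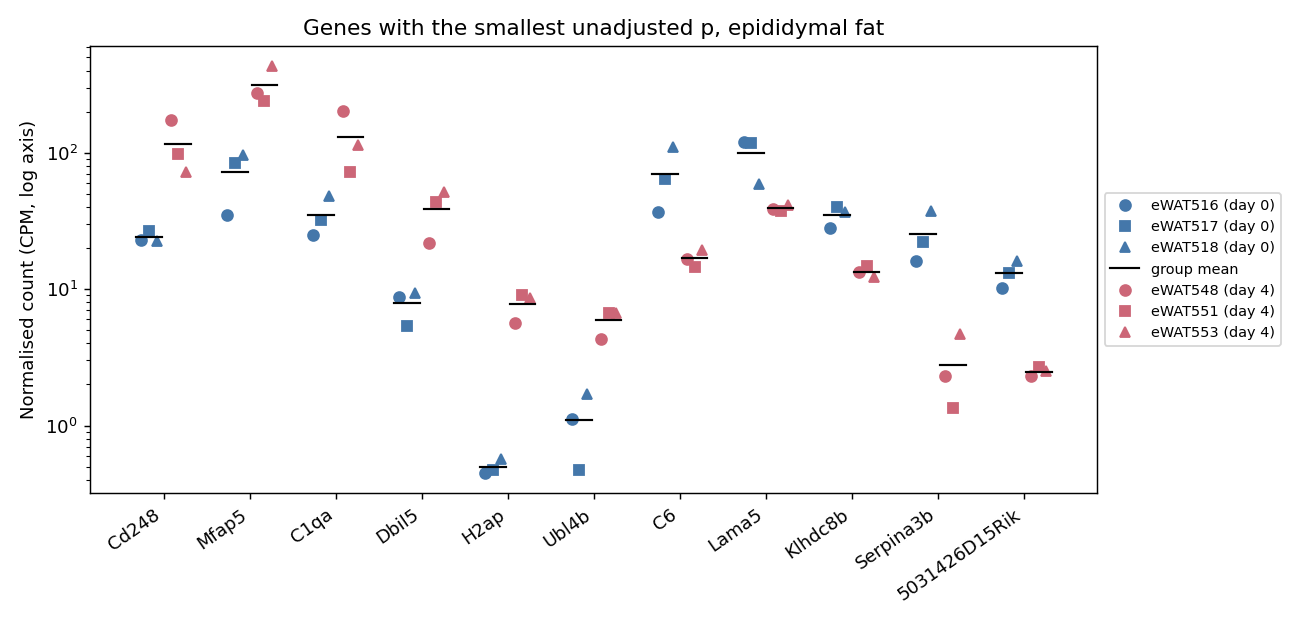
Normalised counts (CPM, log axis) of 6 genes with higher and 5 with lower day 4 values, from those with the smallest unadjusted p, in each day 0 (blue) and day 4 (red) library, with the group mean as a black bar. The genes were picked only from those whose groups do not overlap. Cd248 spans 22.5 to 26.7 CPM at day 0 and 72.8 to 174 CPM at day 4.

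Of the 6 genes with higher values that the rule above picked, 3 are known from the male germ line. H2ap, an X-linked testis histone gene, was at 0.450, 0.469 and 0.570 CPM at day 0 and at 5.61, 9.13 and 8.58 CPM at day 4. Ubl4b, which encodes a ubiquitin-like protein of spermatids, was at 1.13, 0.469 and 1.71 CPM and then at 4.33, 6.71 and 6.65 CPM. Dbil5, a testis homologue of the acyl-CoA binding protein, was at 8.78, 5.39 and 9.40 CPM and then at 21.7, 43.2 and 51.5 CPM (log2 change 2.30, SE 0.61). The day 0 values of H2ap, and that of Ubl4b in eWAT517, lay below the level of 3 counts in a library (0.744 to 0.878 CPM) and so rest on fewer reads than that. H2ap and Ubl4b reached the mean of 5 CPM only at day 4. Their place among the 6 therefore follows in part from that filter. The protamine gene Prm1, whose product packs sperm DNA, was at 10.4, 14.5 and 51.8 CPM and then at 63.7, 77.0 and 130 CPM (1.82, SE 0.80). Prm2, Tnp1 and Tnp2 overlapped between groups, with log2 changes of 1.70, 1.56 and 1.51. The highest values of H2ap and Ubl4b were in eWAT551, the library with the highest summed epididymis and testis markers (44700 CPM), and those of Prm1 and Dbil5 were in eWAT553, where that sum was 1306 CPM. The part of these markers in the values was not tested.

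Circadian clock genes were the pathway list with the lowest median. The clock is a feedback loop in which Clock and Arntl drive genes through E-box sequences, and the Per and Cry proteins made from those genes shut it down. A further loop runs through the repressors Nr1d1 and Nr1d2, and through D-box sequences that Dbp, Tef and Hlf activate and Nfil3 represses. Of 13 tested members, 11 had a negative log2 change, with a median of -0.73 against -0.01 for all genes, and 5 (38.5%) had every day 4 value below every day 0 value, against 4.38% of all genes. At day 2 the median change of the list from day 0 was 0.20. The hour of collection is not among the sample fields used here, and its part in these values was not tested.

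The promoters of Ciart and Per3 are shown because, of the 5 separated genes with a promoter window, they are those that hold an E-box CACGTG or a D-box TTATGTAA; Nr1d2, Dbp and Nfil3 hold 0 of both, and Per2 has no window. The lines give the 250 bases upstream of the RefSeq transcription start, read 5′ to 3′ on the minus strand of GRCm38.p6, with the E-box CACGTG in capitals for Ciart (chr3:95882229-95882478) and the D-box TTATGTAA in capitals for Per3 (chr4:151044666-151044915).
Ciart: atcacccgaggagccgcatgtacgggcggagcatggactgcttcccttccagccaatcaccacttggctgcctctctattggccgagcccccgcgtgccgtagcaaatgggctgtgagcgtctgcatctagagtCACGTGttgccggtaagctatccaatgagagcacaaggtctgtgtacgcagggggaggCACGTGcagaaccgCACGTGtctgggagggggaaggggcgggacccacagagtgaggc
Per3: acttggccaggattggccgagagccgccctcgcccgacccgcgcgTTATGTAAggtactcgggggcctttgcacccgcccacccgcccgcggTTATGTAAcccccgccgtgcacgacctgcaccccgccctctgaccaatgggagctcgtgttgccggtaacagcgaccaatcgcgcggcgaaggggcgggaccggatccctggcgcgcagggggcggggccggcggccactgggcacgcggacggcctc
Ciart held 3 E-boxes and Per3 held 2 D-boxes. CACGTG reads the same on both strands, and TTATGTAA was searched on both. Among 32851 RefSeq promoter windows of this length, 6.02% held CACGTG and 0.819% held TTATGTAA on either strand. Of the 16 clock genes with a window, 5 held the E-box and 1 the D-box. The matches are a description of sequence and were not tested for binding.

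Per2, a core repressor, was at 25.7, 31.4 and 34.8 CPM at day 0 and at 10.96, 17.7 and 19.4 CPM at day 4, a log2 change of -0.93 (SE 0.38, edgeR unadjusted p = 0.0333, adjusted p = 0.9997). Per3 was at 139, 160 and 164 CPM and then at 63.5, 38.7 and 119 CPM (-1.07, SE 0.48). Day 0 was tight in both genes, and the highest day 4 library was eWAT553. Nr1d2 was at 118, 117 and 213 CPM and then at 73.9, 66.8 and 85.0 CPM (-0.99, SE 0.36). The output activator Dbp was low throughout, at 2.48, 3.75 and 4.27 CPM and then at 1.27, 0.537 and 1.66 CPM (-1.57, SE 0.61). Ciart, a repressor of Clock and Arntl, was at 7.43, 3.98 and 3.70 CPM and then at 1.02, 2.42 and 3.60 CPM (-1.10, SE 0.61), so its groups were only just apart. Nfil3 went the other way, at 6.75, 6.33 and 5.98 CPM and then at 25.2, 10.7 and 8.58 CPM (1.22, SE 0.57). Clock itself overlapped by a small margin (-0.76, SE 0.37), and Nr1d1 overlapped widely because eWAT553 stood at 350 CPM (-0.40, SE 0.64). The median of the list ran from -0.91 to -0.50 when each of the 6 libraries was left out, and was -0.52 without eWAT516 and eWAT551. Without eWAT517, 5 of 13 members were positive.

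**Figure D3:**
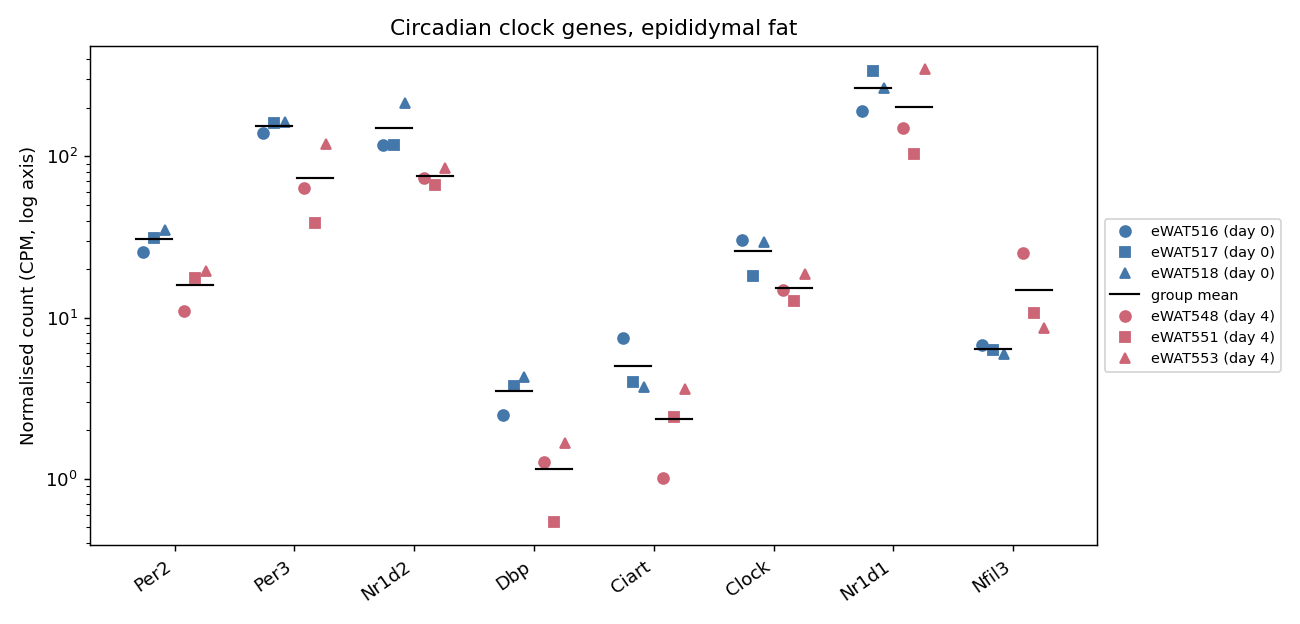
Normalised counts (CPM, log axis) of 8 circadian clock genes in each day 0 (blue) and day 4 (red) epididymal library, with the group mean as a black bar. Per2, Per3, Nr1d2, Dbp and Ciart have all day 4 points below the day 0 points, Nfil3 has them above, and Clock and Nr1d1 overlap.

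Genes of heat production gave no common direction. Ucp1 was at 2.93, 12.9 and 11.4 CPM at day 0 and at 20.4, 0.537 and 49.0 CPM at day 4. These values rest on 13, 55 and 40 reads and then on 80, 2 and 177 reads. The day 4 libraries thus held both the lowest and the highest Ucp1 level of the 6, and the lowest was eWAT551, with the epididymal genes. The log2 change was 1.36 (SE 1.23, 95% interval -1.40 to 4.12). Another 4 thermogenic genes and the hormone gene Fgf21 were counted but did not pass the filter. Cidea, a lipid droplet protein of brown fat, had 3, 2 and 2 reads at day 0 and 4, 2 and 5 at day 4. The thyroid hormone activating enzyme Dio2 had 2, 2 and 2 reads and then 8, 1 and 5. The fatty acid elongase Elovl3 had 1, 0 and 2 reads and then 2, 0 and 6. The carnitine transferase Cpt1b had 0 reads in 5 of the 6 libraries and 1 in eWAT551, where 0 reads allows up to 3 counts, or 0.744 to 0.878 CPM. Fgf21 had 1, 4 and 0 reads and then 5, 4 and 1. Such counts are too low to show a difference of a few reads. Of 10 tested members of the thermogenic list, 4 were positive and 6 negative, with a median of -0.20 (leave-out range -0.26 to 0.10), and 1 had all day 4 values below day 0. Adrb3, the beta-adrenergic receptor through which cold acts on adipocytes, was at 430, 767 and 1557 CPM and then at 454, 252 and 682 CPM (-0.99, SE 0.58). Of the 22 genes fixed by name, 11 were tested, 5 did not pass the filter, and 6 had no row in the epididymal table used here.

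Beige fat markers (5 tested, median -0.05, from -0.66 without eWAT548 to 0.42 without eWAT518), with the fatty acid transporter Slc27a1 at a log2 change of 0.09 (SE 0.51), were as mixed. So were genes of cAMP and adrenergic response (10 tested, 3 positive, median -0.14, from -0.43 without eWAT553 to 0.05 without eWAT548). Creatine and calcium cycling genes had a median of 0.06 over 6 (leave-out range -0.22 to 0.41). Their most abundant member, brain-type creatine kinase Ckb, was at 736, 228 and 97.1 CPM and then at 115, 168 and 111 CPM (-1.43, SE 0.74), where eWAT516 was the high library.

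Among genes of fat synthesis, 12 of 15 de novo lipogenesis genes had a positive log2 change, with a median of 0.61, and in 1 of 15 (6.67%) were the groups apart. That gene was Thrsp (Spot 14), a regulator of lipogenic enzymes, at 551.3, 1047 and 1347 CPM at day 0 and at 3193, 1426 and 2466 CPM at day 4 (log2 change 1.27, SE 0.48). The fatty acid synthase gene Fasn was at 617, 2770 and 2285 CPM and then at 3557, 1890 and 5178 CPM (0.91, SE 0.62). The desaturase gene Scd1 was at 4275, 17160 and 17730 CPM and then at 26240, 12330 and 33690 CPM (0.88, SE 0.62). In both enzymes eWAT516 was by far the lowest and eWAT551 the lowest of day 4, and the groups overlapped. The acetyl-CoA carboxylase gene Acaca had a log2 change of 0.86 (SE 0.60), the elongase gene Elovl6 of 0.84 (SE 0.43), and Srebf1, whose product switches on lipogenic genes, of 0.59 (SE 0.42). Leaving out each of the 6 libraries put the list's median between 0.46 and 0.73, and it was 0.60 without eWAT516 and eWAT551. The pentose phosphate and NADPH list, which supplies reducing power for this pathway, had 5 of 6 positive with a median of 0.52 (0.29 without eWAT553 and 0.32 without eWAT548), and transketolase (Tkt) had a log2 change of 1.00 (SE 0.64). Sterol synthesis genes had a median of 0.28 over 17 (0.09 without eWAT551 and 0.13 without eWAT553), with Insig1, the brake on sterol synthesis, at 0.67 (SE 0.54).

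The fat release, storage and uptake genes that were tested had list medians near that of all genes. The lipase genes Pnpla2 and Lipe and the droplet gene Plin5 had no row in the epididymal table used here and were not tested. Lipolysis and lipid droplet genes were positive in 8 of 9 with a median of 0.22 (0.03 without eWAT516 to 0.47 without eWAT551, with 5 to 7 of 9 positive), and the droplet protein gene Cidec had a log2 change of 0.57 (SE 1.00). Triglyceride synthesis and glyceroneogenesis genes had 5 of 10 positive (median 0, from -0.40 without eWAT553 to 0.44 without eWAT517), with Pck1, the enzyme of glycerol phosphate supply, at -0.46 (SE 0.61). Fatty acid uptake genes had a median of -0.03 over 10 (-0.25 without eWAT548 to 0.27 without eWAT518). The fatty acid binding protein gene Fabp4 was at 9482, 26010 and 42300 CPM and then at 13460, 8516 and 30400 CPM (-0.57, SE 0.66). The hormone genes overlapped as well: leptin (Lep) had a log2 change of 0.14 (SE 0.64), adiponectin (Adipoq) of 0.20 (SE 0.76) and resistin (Retn) of 0.56 (SE 0.59). The insulin-responsive glucose transporter gene Slc2a4 had a log2 change of -0.29 (SE 0.74). For these genes the intervals were wide enough to hold a change of more than 1 log2 unit in either direction, except that the 95% interval ended at -0.77 below 0 for Retn, at 0.90 above 0 for Pck1 and at 0.91 above 0 for Fabp4.

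Nuclear-encoded respiratory chain genes, the largest list, had the highest count of separated members. The complement list and the fibroblast and progenitor list had a higher share (45.5% each). Of 47 tested, 37 had a positive log2 change, with a median of 0.41, and 13 (27.7%) had every day 4 value above every day 0 value, against 4.82% of all genes. An unadjusted edgeR p under 0.05 was found for 0 of the 47, against 2.76% of all genes. Ndufs3, a core subunit of complex I, was at 332, 507 and 303 CPM at day 0 and at 925, 578 and 741 CPM at day 4 (log2 change 0.97, SE 0.45). Cox7b of complex IV was at 515, 563 and 554 CPM and then at 1093, 877 and 730 CPM (0.73, SE 0.38), so a tight day 0 group lay below a wider day 4 group. Cox5a, also of complex IV, was at 552, 800 and 192 CPM and then at 1277, 1000 and 1066 CPM (1.11, SE 0.96), and Cox4i1 had a log2 change of 0.78 (SE 0.93). For these last 2 genes eWAT518 was the lowest library. Leaving out each of the 6 libraries put the list's median between 0.26 (without eWAT548) and 0.56 (without eWAT551).

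Other mitochondrial lists were positive with smaller shares of separated members. Fatty acid oxidation genes were positive in 15 of 19 (median 0.26), tricarboxylic acid cycle genes in 12 of 16 (median 0.26), pyruvate entry genes in 9 of 12 (median 0.42) and mitochondrial ribosome genes in 15 of 22 (median 0.19). The fatty acid oxidation median was 0 with 10 of 19 positive without eWAT553, 0.09 without eWAT516, 0.53 without eWAT518 and 0.62 without eWAT551. The tricarboxylic acid cycle median was -0.02 without eWAT548 and 0.45 to 0.59 without eWAT518, eWAT551 or eWAT553. The leave-out range was 0.29 to 0.69 for pyruvate entry, highest without eWAT518, and 0.11 to 0.25 for the mitochondrial ribosome, lowest without eWAT553. Pdk4, the kinase that closes pyruvate dehydrogenase when fat is burned, was at 28.8, 40.3 and 26.5 CPM and then at 77.0, 52.1 and 61.2 CPM (log2 change 0.99, SE 0.50), with no overlap. Its target Pdha1 had a log2 change of 0.79 (SE 0.46), the acyl-CoA synthetase Acsl1 of 0.30 (SE 0.49) and the mitochondrial ribosomal protein gene Mrps7 of 0.10 (SE 0.38).

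Protein synthesis and turnover lists were also mostly positive. Cytosolic ribosome genes were positive in 28 of 31 (median 0.47, 2 separated), proteasome genes in 22 of 26 (median 0.37, 2 above and 1 below) and endoplasmic reticulum stress genes in 12 of 16 (median 0.37, 2 above). The ribosomal gene Rplp1 had a log2 change of 0.56 (SE 0.48), the proteasome gene Psmb1 of 0.48 (SE 0.40) and the chaperone gene Hsp90b1 of -0.11 (SE 0.97). The endoplasmic reticulum median was -0.05 without eWAT551 and 0.65 to 0.74 without eWAT516, eWAT518 or eWAT553. The proteasome median was 0.18 without eWAT518, and the ribosome median was 0.30 without eWAT551. Heat shock genes had a median of 0.04 over 14 (-0.27 without eWAT551 to 0.19 without eWAT518), and the abundant Hspa8 stood at 0.85 (SE 0.87).

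**Figure D4:**
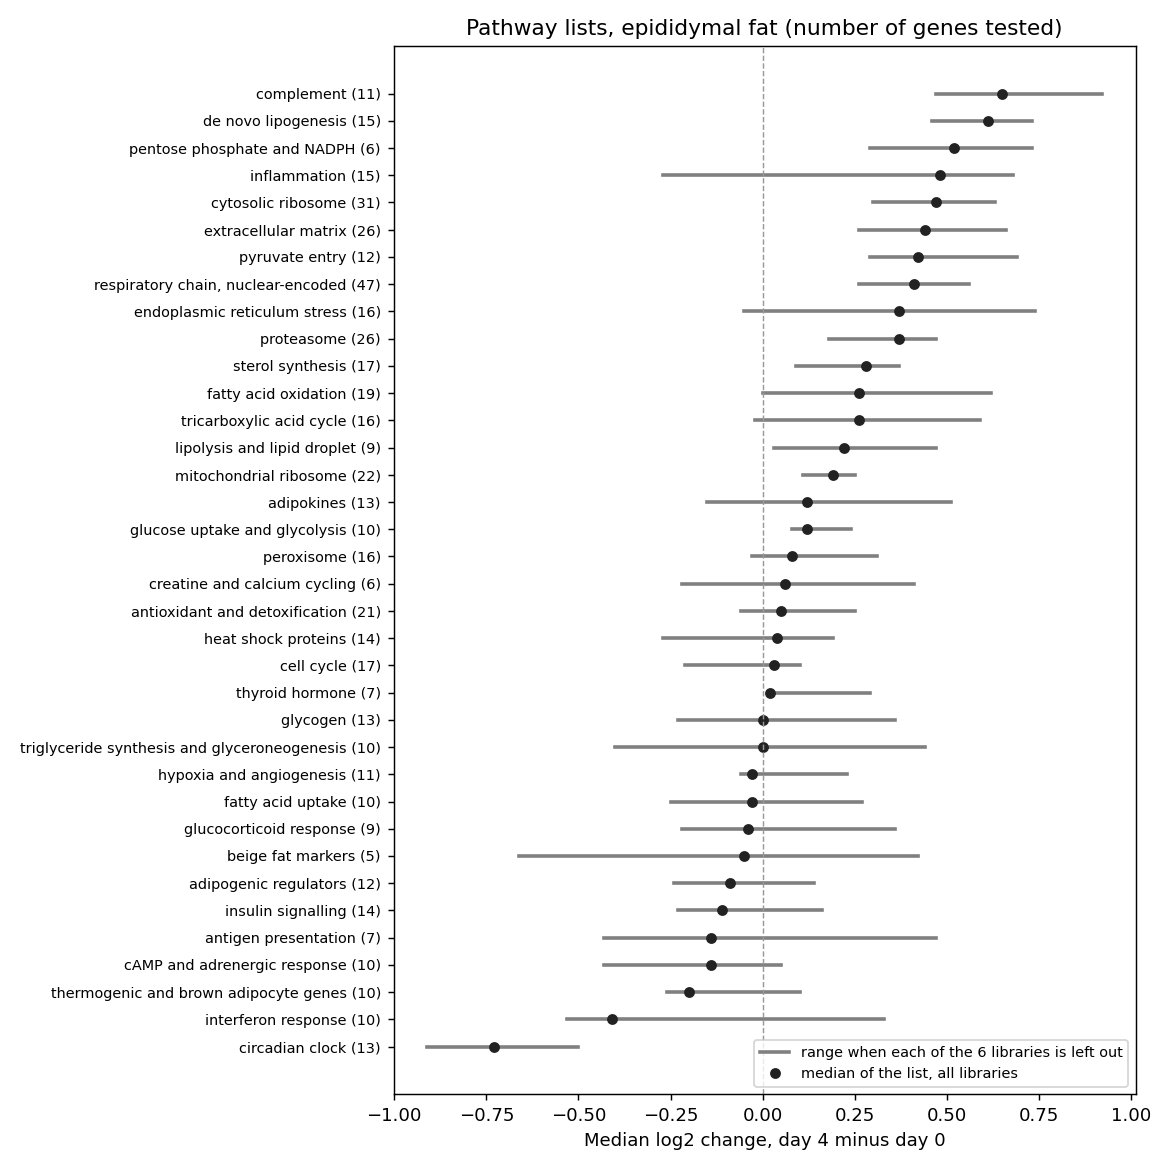
Median log2 change (day 4 minus day 0) of each pathway list in epididymal fat (dots), with the number of genes tested in brackets, and the range of that median when each of the 6 compared libraries is left out in turn (grey bars). The circadian clock list lies lowest at -0.73 and complement highest at 0.65, and bars of many other lists cross 0.

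The remaining pathway lists had medians between -0.41 and 0.12. Interferon response genes had 3 of 10 positive (median -0.41), but the median was 0.33 without eWAT518; their most abundant member Gbp2 had a log2 change of 0.20 (SE 0.50). Antigen presentation genes had a median of -0.14 over 7, which was 0.47 with 7 of 7 positive without eWAT518 and -0.43 without eWAT548, and B2m, the light chain of class I molecules, ran from 283 to 5010 CPM within day 0. Insulin signalling genes (14 tested, median -0.11), adipogenic regulators (12, -0.09, with Cebpa at -0.17), hypoxia and angiogenesis genes (11, -0.03, with Bnip3 at -0.03) and cell cycle genes (17, 0.03, with Ccnd2 at 0.21) were near 0. So were immediate early genes, a sign of tissue handling (13, -0.04, with Jun at -0.14), and glucocorticoid response genes (9, -0.04), although the metallothionein gene Mt2 was at 861, 862 and 874 CPM and then at 2506, 1359 and 1060 CPM (0.92, SE 0.42), with no overlap. Thyroid hormone (7, 0.02), glycogen (13, 0, with Pygb at 0.48), glycolysis (10, 0.12, with Ldhb at -0.51), peroxisome (16, 0.08, with Scp2 at -0.09), antioxidant (21, 0.05, with Gpx3 at -0.10) and adipokine lists (13, 0.12) complete the set. For the lists of this group, interferon response and antigen presentation aside, the medians with 1 library left out ran from -0.29 to 0.51, and the sign changed in all but the thyroid hormone and glycolysis lists.

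Markers of several other cell types moved mainly with single libraries. Pericyte and smooth muscle markers were negative in 8 of 8, with a median of -2.07, but the median was -0.05 without eWAT516. In Mylk, the smooth muscle myosin light chain kinase, eWAT516 was at 3672 CPM and the other 5 libraries at 238 to 281 CPM, and the contractile genes Cnn1 and Tagln had the same shape. Skeletal muscle markers (6 tested, median -0.55, with Acta1 at -2.24) had a median of 0.32 without eWAT516. Epididymis and testis markers were positive in 18 of 20 with a median of 3.25, which was 0.56 with 12 of 20 positive without eWAT551. Endothelial markers had a median of -0.38 over 8, from -0.89 without eWAT548 to -0.02 without eWAT551 (Cdh5 at 0.11, SE 0.80). Lymphocyte markers had one of -0.07 over 6 (-0.71 without eWAT548 to 0.47 without eWAT518), with Gata3 at 221 CPM in eWAT516 and 60.9 CPM in eWAT551 against 4.98 to 10.8 CPM in the other 4. Mesothelial markers were positive in 7 of 9 (median 0.76, leave-out range 0.52 to 1.14), although the keratin gene Krt8 was at -1.20 (SE 0.97). In 2 of the 9 (22.2%) all day 4 values lay above all day 0 values, and 5 of 9 were positive without eWAT551. The 2 red blood cell markers tested, which include the near-identical haemoglobin copies and so are uncertain, had a median of 1.32 (Hba-a1 at 1.25, SE 0.69), which was 0.55 without eWAT553. Mammary and salivary epithelium markers had a median of -0.05 over 7, which was 1.58 with 6 of 7 positive without eWAT516 and -1.94 with 0 of 7 positive without eWAT551. White adipocyte markers were positive in 6 of 7 with a median of 0.20 (-0.06 without eWAT516 to 0.55 without eWAT551).

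The change at day 4 was set against that in the other depots in 1 fit of all 31 libraries. For 11041 genes, edgeR called 0 differences (0%) between the epididymal and the inguinal change and 0 (0%) between the epididymal and the brown fat change. Unadjusted p-values under 0.05 numbered 448 (4.06%) and 445 (4.03%). The smallest adjusted p was 0.2327, for Fbn1 against inguinal fat. In this fit Fbn1 had a log2 change of 2.47 (SE 0.49) in epididymal, -0.74 (SE 0.39) in inguinal and -0.18 (SE 0.48) in brown fat, and the difference from inguinal fat was 3.20 (SE 0.63). Pi16 had changes of 1.30 (SE 0.59) and -2.19 (SE 0.50) in the epididymal and inguinal depots, a difference of 3.49 (SE 0.78, edgeR adjusted p = 0.4441). For Mfap5 the difference was 3.00 (SE 0.73, adjusted p = 0.5096), and for Cd248 it was 3.42 (SE 1.06, adjusted p = 0.6499). In brown fat the changes of Mfap5, Pi16 and Cd248 were positive, as in epididymal fat, at 1.18 (SE 0.56), 0.57 (SE 0.59) and 0.54 (SE 0.83). Fibroblast and progenitor markers as a list had median changes of 1.14 in epididymal, -0.85 in inguinal and -0.36 in brown fat, with 10, 1 and 3 of 11 positive. Complement genes had medians of 0.66, -0.53 and -0.28, and macrophage markers 0.58, -0.75 and -0.77. The medians of these lists thus had opposite signs in the epididymal depot and the other 2, though not every member did. No single gene's difference passed the test.

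For Ucp1 and the respiratory chain list the inguinal change was the highest of the depots. The epididymal change was the lowest, but near that of brown fat. Ucp1 had a log2 change of 1.37 (SE 1.04) in epididymal, 3.94 (SE 0.95) in inguinal and 1.83 (SE 1.03) in brown fat. The epididymal change differed from the inguinal one by -2.57 (SE 1.34, edgeR adjusted p = 0.9999) and from the brown fat one by -0.46 (SE 1.445). The thermogenic list had medians of 0.27, 1.78 and 1.12 over the 19 members tested in this fit. Only 10 of its members passed the count filter in the epididymal fit, where the median was -0.20. The rest passed through libraries of the other depots, so the order of these medians rests partly on genes below the epididymal filter. Respiratory chain medians were 0.42, 1.09 and 0.47, with 37, 45 and 42 of 47 positive. De novo lipogenesis medians were 0.62, 0.57 and 0.71, and Thrsp had changes of 1.29, 0.85 and 1.36. Clock genes had medians of -0.70, -0.02 and -0.44, and for Per2 the difference between epididymal and inguinal fat was -0.90 (SE 1.07). Ckb had a change of -1.41 in epididymal and 2.22 in brown fat, a difference of -3.63 (SE 1.00, adjusted p = 0.724). In the brown fat library iBAT548 a missing value is not shown to be a count of 0, which touches the comparisons with brown fat. Library iBAT548 had 7535 features counted, 57 of them at a count of 1. The day 4 libraries iBAT550 and iBAT555 had 10705 and 10983, with 1139 and 1159 at a count of 1. If its missing values are not 0, brown fat levels of low genes at day 4 are too low, also in the complement and macrophage lists.

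**Figure D5:**
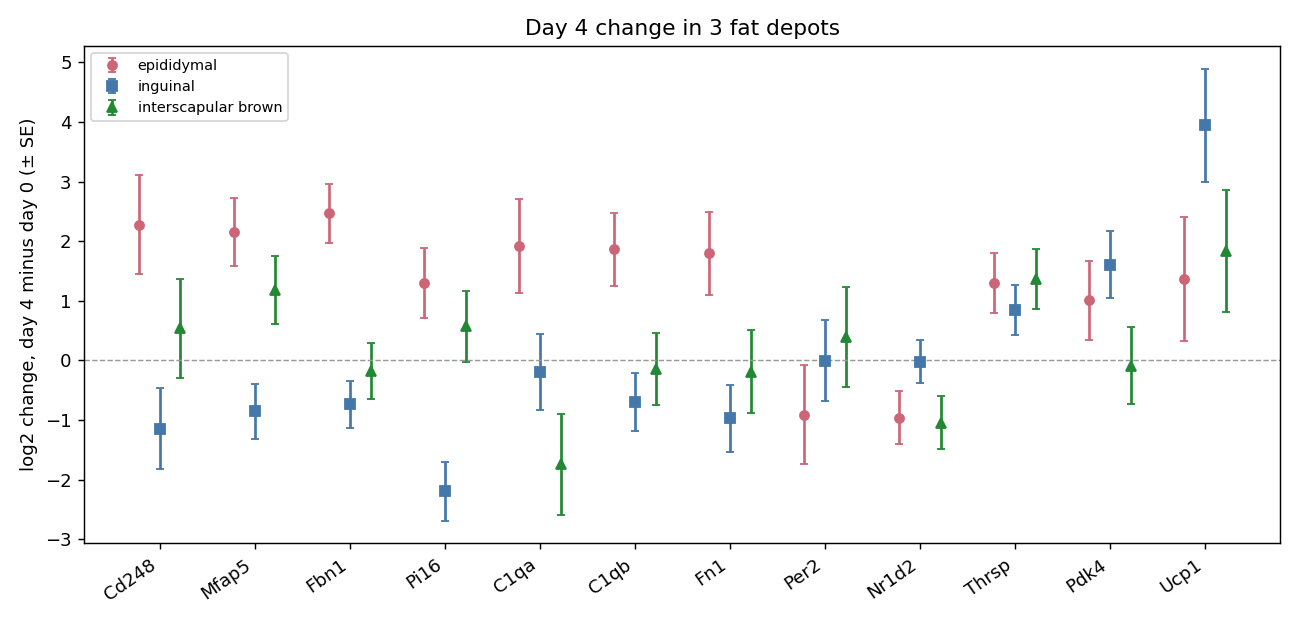
Log2 change from day 0 to day 4 (± SE from the fit of 31 libraries) of 12 genes in epididymal (red circles), inguinal (blue squares) and interscapular brown fat (green triangles). Cd248, Mfap5, Fbn1, Pi16 and Fn1 are positive in epididymal and negative in inguinal fat, whereas Ucp1 is highest in inguinal fat at 3.94.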

How the data were processed

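Per the labels' protocols, 1 µg of total RNA from each dissected depot went into an Illumina library. The authors deposited raw counts per RefSeq accession, 1 table per depot. The submitters' processing notes name cutadapt, BWA and mm10, and the counting step, strand use and duplicate removal are not given in the sources used here. No table holds a 0; missing values were read as 0 and all others are whole numbers. Of 16132 epididymal accessions, 15859 took a symbol from RefSeq of GRCm38.p6 and 97 from GENCODE, and 176 had none.

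The 9 epididymal libraries were fitted with edgeR 4.0.16 in R 4.3.3: TMM scaling, filterByExpr (minimum count 10, total 15), 1 mean per day, and robust two-sided quasi-likelihood tests of day 4 against day 0 with Benjamini-Hochberg adjustment at 0.05. The depot differences came from 1 such fit of 31 libraries. Levels are CPM on TMM-scaled totals, and marker sums are CPM of plain totals. The common biological coefficient of variation was 0.583. The scripts were tested on simulated data. Intervals and the 3-count floor cover counting or replicate error as named, and reads carry no molecular identifiers.

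Named genes are 22 fixed genes, the 6 genes in each direction with the smallest unadjusted p whose groups did not overlap and reached a mean of 5 CPM (since none passed 0.05), and the most abundant member of each of 50 lists. Some genes that this rule names are not reported here. All other genes were picked once their values had been seen. The genes, lists and comparison were chosen with earlier results of these data known. Alternatives were RLE factors, library size alone, no filter, the 6 compared libraries alone, a library score as covariate, DESeq2 1.42.0, limma voom 3.58.1, each library left out, and a replicate block between depots. The library score projects a library on the main axis of variation within groups of the other 2 depots.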

Additional observations from a re-analysis of the deposited data

How the results depend on the processing

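The calls of day 4 against day 0 stayed at 0 higher and 0 lower with RLE factors, library size alone, no count filter, the 6 compared libraries alone, the library score as covariate, limma voom, each of the 9 libraries left out, and without eWAT516 and eWAT551 together, a setting chosen after the data were seen. DESeq2 called 1 higher and 3 lower. Unadjusted p-values under 0.05 numbered 96 without eWAT516 and eWAT551, 212 with limma voom and 191 to 400 with 1 library left out, against 277 in the main fit. Of these settings, only the one without eWAT516 and eWAT551 moved the count by over 1.5 times. With library size alone as the scaling, the median log2 change over all genes became -0.19, and changes under it are relative to that shift. Some named genes took the opposite sign, and the cause was not tested. Most had small log2 changes, but Akr1b7 (-9.43), Lcn8 (8.22), Acta1 (-2.24) and Krt17 (-1.12) had large ones in the main fit. Of the 6 compared libraries, Akr1b7 and Acta1 were highest in eWAT516 and Lcn8 in eWAT551. With library size alone the genes of opposite sign were Lep -0.02, Slc27a1 -0.07, Mrps7 -0.09, Cfd -0.03, Lpl -0.02 and Cdh5 -0.06. With the library score they were Adipoq -0.12, Hsp90b1 0.97, B2m 0.40, Bnip3 0.14, Cdh5 -0.02 and Krt17 1.25, with limma voom Hsp90b1 0.32, Cfd -0.45 and Krt17 0.03, and without eWAT516 and eWAT551 Ldhb 0.16, Acta1 0.99, Akr1b7 0.43, Mbp 0.02 and Lcn8 -0.04. Leaving out each of the 9 libraries gave log2 changes that crossed 0 for Lep -0.31 to 0.55, Adipoq -0.18 to 0.53, Pck1 -1.02 to 0.15, Slc2a4 -0.85 to 0.51, Slc27a1 -0.18 to 0.42, Acsl1 -0.07 to 0.65, Ldhb -0.89 to 0.56, Mrps7 -0.12 to 0.38, Scp2 -0.42 to 0.30, Cebpa -0.55 to 0.11, Hsp90b1 -0.56 to 1.66, Hp -0.81 to 1.65, Gbp2 -0.09 to 0.46, Cfd -1.14 to 0.59, B2m -1.97 to 1.06, Bnip3 -0.49 to 0.53, Ccnd2 -0.14 to 1.19, Gpx3 -0.31 to 0.09, Lpl -0.30 to 1.03, Gata3 -3.93 to 1.5, Cdh5 -0.17 to 0.67, Mylk -2.92 to 0.05, Acta1 -3.04 to 0.63, Akr1b7 -10.45 to 0.21, Mbp -0.47 to 0.09, Krt17 -2.52 to 2.54, Jun -0.37 to 0.17 and Cnn1 -5.12 to 0.02.

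The depot differences stayed at 0 calls with RLE factors, limma voom and the replicate block on label number (0 of 10793 genes against inguinal fat, with 477 unadjusted p-values under 0.05, and 0 against brown fat, with 693). Deviations of same-numbered libraries correlated at over 0.1 in 3 of 9 epididymal and inguinal pairs and 1 of 6 epididymal and brown fat pairs, and the own number was the best match in 2 of 9 and 2 of 6, so the numbers were not taken to pair the libraries. No paired analysis was possible for day 4 against day 0 because no label number recurs between these days. With 3 libraries a day the spread between libraries, and for genes under about 3 counts the depth, limits what could be detected.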

Other observations

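The day 2 libraries of epididymal fat share the day 0 libraries as controls, so their values are given side by side and not compared further. Cd248 was at 16.6, 43.7 and 32.6 CPM at day 2 (eWAT532, eWAT538 and eWAT539), C1qa at 15.4, 33.6 and 32.8 CPM, Fn1 at 58.1, 172 and 105 CPM and Pi16 at 55.5, 81.8 and 88.2 CPM. These lie among or near the day 0 values. Fbn1 was at 53.5, 340 and 174 CPM and Mfap5 at 79.9, 238 and 156 CPM, with 1 or more libraries above day 0. Thrsp was at 2059, 2733 and 2615 CPM, all above day 0, as at day 4. C6 was at 14.8, 35.5 and 19.5 CPM and Lama5 at 47.7, 44.6 and 71.6 CPM, between or near the other days. Per2 was at 45.9, 39.4 and 28.5 CPM, which overlaps day 0, while Per3 was at 144, 83.1 and 63.5 CPM. Dbp at 2.91, 6.19 and 4.07 CPM and Ciart at 9.59, 4.24 and 10.04 CPM also overlapped day 0. H2ap was at 0.581, 0.326 and 5.43 CPM, so a single day 2 library, eWAT539, came near the day 4 level.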
